A study of Mus musculus with 2 samples.

Results

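The transcripts of Rab GTPases and of the proteins that regulate them were compared between the second polar body (PB2), the small cell that the egg extrudes when it completes meiosis after fertilization, and the zygote from which it was taken. Members were chosen by gene symbol alone, as symbols that begin with Rab and a number or with Rabgap, Rabep, Rabggt, Rabi, Raba, Rabl, Tbc1d or Dennd, and 90 of the 11262 genes in the table met that rule. Both samples were mouse material of the late one-cell stage, without the study's drug treatments. The strain was C57BL/6 by the labels and C57BL/6N by the study's methods. By those methods, females were superovulated with the hormones PMSG and HCG and then mated. Embryos were collected from the oviduct, freed of granule cells with hyaluronidase and kept in KSOM, an embryo culture medium. The zona pellucida was dissolved with acid Tyrode's solution, and PB2s were then separated from zygotes with trypsin and pipetting. Each library was made from a pool of cells by amplification of full-length cDNA, and there was 1 library of PB2s and 1 library of zygotes. The spread between samples of a kind is therefore unknown, no test was possible and no p-value is given, and each difference below describes these 2 libraries.

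A Rab GTPase is a switch that marks the membrane of a particular compartment. A guanine nucleotide exchange factor (GEF) loads it with GTP, the GTP-bound form recruits effectors such as tethers and motors, and a GTPase-activating protein (GAP), usually one with a TBC domain, returns it to the GDP-bound form. Rabs hold on to membranes by lipid groups that Rab geranylgeranyl transferase adds with the help of an escort protein, and a GDP dissociation inhibitor (GDI) takes the inactive form off the membrane. In mouse eggs, Rab3a and Rab27a are known for the exocytosis of cortical granules and Rab11a for the vesicles that carry the cytoplasmic actin network.

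Values are TPM, a transcript's share of its library adjusted for length, and the log2 ratio is log2((PB2 TPM + 1)/(zygote TPM + 1)). It understates the difference for genes of a few TPM. TPM are proportions, so a PB2 with less RNA of all kinds and a PB2 with the zygote's amount per cell cannot be told apart here. The number of reads behind each value is unknown. The median log2 ratio over the 10645 genes with at least 1 TPM in either library was 0.21, and ratios of members are to be read against that shift. All 15 oocyte markers examined were above 0 in both libraries, with a summed level of 49032.6 TPM in zygotes and 40079.3 TPM in PB2. Dppa3 and Oosp1 carried most of the sum in zygotes, while the median log2 ratio of the 15 was 0.78, above that of the members given below, and 5 were past 2-fold towards PB2 and 1 towards the zygote. Of 15 cumulus and granulosa cell markers, 4 were in the table, with a sum of 74.7 TPM in zygotes and 76.4 TPM in PB2 that came mostly from Cyp19a1, at 72.2 and 70.9 TPM. Of these 4, Cyp11a1 was at 0 in the zygote and 0.8 TPM in PB2. Of 7 sperm markers, 2 were in the table, Prm2 at 19.8 TPM in zygotes and 22 TPM in PB2 and Akap4 at 1 and 0.6 TPM. None of the 6 oviduct markers was among the genes analysed. The table holds part of each library, so markers outside it were not analysed here and their levels are unknown, and the part of other cells in the results below was not tested.

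Of the 90 members, 85 passed 1 TPM in either library. Higher in PB2 by 2-fold or more were 21 members, which is 24.7% of those compared, where the share among all genes compared was 18.9%. Only Rab1a was that much higher in the zygote, 1 of 85 members, where the share among all genes was 8.09%. The other 63 members lay within 2-fold. The median log2 ratio of the members was 0.44, their middle part ran from -0.10 (lower quartile) to 1.00 (upper quartile), and 59 lay above 0 and 26 below. The members added up to 5193 TPM in zygotes and 5896 TPM in PB2. With all ratios centred on the median of all genes, 18 members were past 2-fold towards PB2, where 13.0% of all genes were, and 2 towards the zygote, Rab1a and Rab9, where 12.1% of all genes were. Between 0 and the all-gene median lay 6 members, whose sign turns with that centring. At 1.5-fold, 37 members were past the threshold towards PB2 and 5 towards the zygote (34.2% and 18.1% of all genes), and at 4-fold 4 and 0 were (2.48% and 0.695%). Among genes with 5 TPM in both libraries 10 and 0 members were past 2-fold (15.8% and 7.17%). With the length trend removed 16 and 2 were (12.1% and 11.7%), with a pseudocount of 0.1 27 and 2 (24.6% and 10.3%) and with 0.01 27 and 2 (24.7% and 10.4%). The 5 members under 1 TPM in both libraries were Rab3c, Rab6b, Tbc1d31, Dennd1b and Dennd5b.

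Several close relatives differed from each other in their ratios, so the stretch that encodes the phosphate-binding loop (P-loop) of the GTPase is shown for 4 sets of paralogs. Each sequence is 30 bases of coding sequence, with the 24 bases that encode the P-loop in capitals, read from the GENCODE M21 transcripts on GRCm38.
Rab1a: attGGCGATTCTGGGGTTGGAAAGTCCtgc
Rab1b: attGGTGACTCCGGCGTGGGCAAGTCGtgc
Rab3a: attGGGAACAGCAGCGTGGGCAAAACCtcg
Rab3b: attGGCAACAGCAGCGTCGGGAAGACCtcc
Rab3d: atcGGGAACAGCAGCGTGGGCAAGACAtcc
Rab5a: ctaGGAGAGTCTGCTGTTGGCAAATCAagc
Rab5b: ctgGGAGAGTCTGCAGTGGGGAAGTCTagc
Rab5c: ttgGGCGAGTCTGCCGTGGGCAAGTCCagc
Rab8a: atcGGGGACTCGGGGGTAGGGAAGACCtgt
Rab8b: atcGGCGACTCCGGCGTTGGCAAGACCtgc

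The Rab1a stretch lies at chr11:20215655-20215684 on the plus strand in exon 2 of 6, and that of Rab1b at chr19:5105196-5105225 on the minus strand, also in exon 2 of 6. Between these genes 7 of the 24 P-loop bases differed, all 7 at the last position of a codon, and 77.6% of the 603 aligned coding bases were identical. The Rab3 stretches lie at chr8:70755937-70755966 (Rab3a, plus strand), chr4:108890389-108890418 (Rab3b, plus) and chr9:21915822-21915851 (Rab3d, minus), and Rab3a and Rab3d differed at 2 P-loop bases. Those of Rab5 lie at chr17:53483988-53484017 (Rab5a, plus), chr10:128686806-128686835 (Rab5b, minus) and chr11:100719973-100720002 (Rab5c, minus). Those of Rab8 lie at chr8:72161398-72161427 (Rab8a, plus) and chr9:66919565-66919594 (Rab8b, minus), in exon 1 of 8 of either gene, and differed at 5 P-loop bases. The share of G and C at the last codon position was 45.5% in Rab1a and 68.7% in Rab1b, and 31.6% in Rab5a, 56.3% in Rab5b and 64.1% in Rab5c. In the Rab1 and Rab5 sets the relative with the most G and C there had the largest log2 ratio. That order did not hold in Rab3, where Rab3a had 72.7% and Rab3d 72.6%, or in Rab8, where Rab8a had 70.0% and Rab8b 52.2%. It also did not hold in Rab2, in Rab11 with Rab25, or in Rab32 with Rab38.

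Among the 41 Rab GTPases, 39 were compared, with a median log2 ratio of 0.39. Of these, 6 (15.4%) passed 2-fold towards PB2 and 1 (2.56%) towards the zygote, where 18.9% and 8.09% of all genes did. Their summed level was 2188 TPM in zygotes and 3052 TPM in PB2. The most abundant Rab was Rab7, which directs late endosomes to lysosomes, at 436.3 TPM in zygotes and 524.6 TPM in PB2. It was followed in both libraries by Rab2a, which acts between the ER and the Golgi (260.7 and 325.8 TPM), and Rab11a of recycling endosomes (208.2 and 260.8 TPM). The log2 ratios of these 3 were 0.27, 0.32 and 0.32, close to the shift of all genes.

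**Figure D1:**
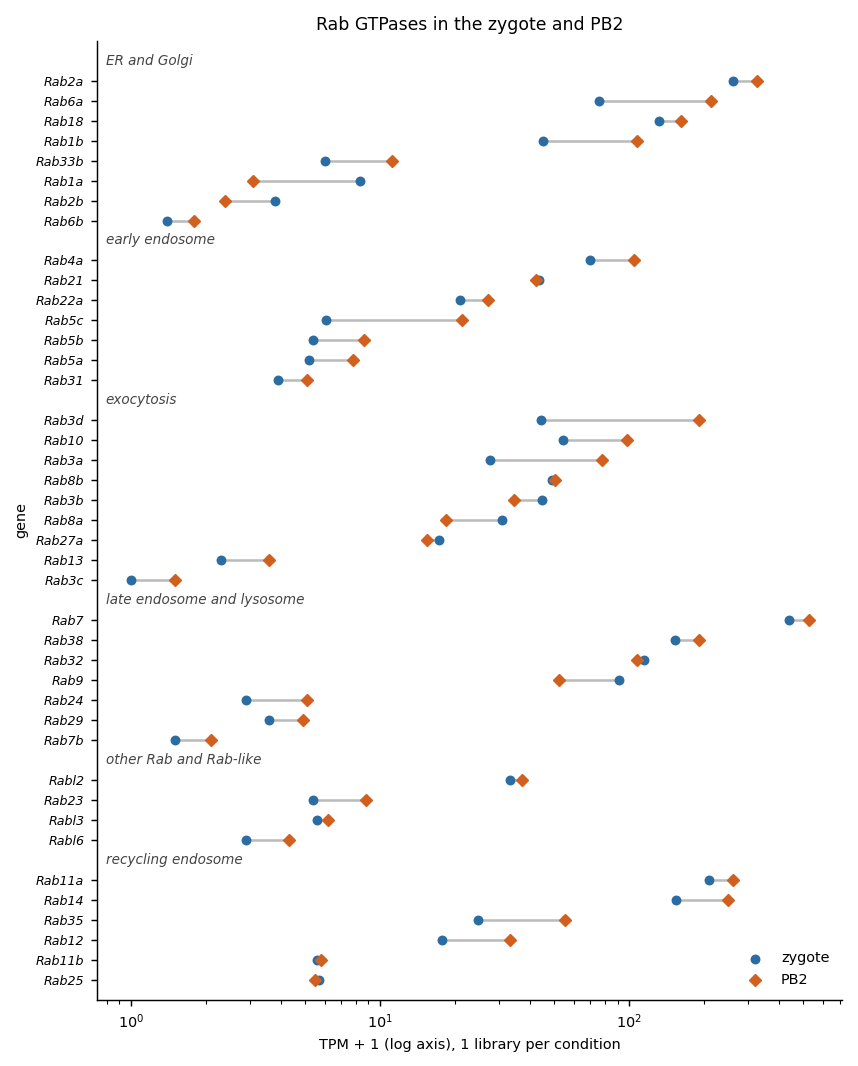
Level of each Rab GTPase as TPM + 1 on a log axis, in the zygote library (circles) and the PB2 library (diamonds), with genes grouped by compartment and 1 library per condition. Rab3d, Rab5c and Rab6a have long lines with PB2 on the right, and Rab1a has a long line with the zygote on the right.

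Rabs of the ER and Golgi added up to 525.7 TPM in zygotes and 819.9 TPM in PB2. Rab6a, which serves traffic at the Golgi, was at 74.9 TPM in zygotes and 212 TPM in PB2 (log2 ratio 1.49). Rab1a and Rab1b both act in transport from the ER to the Golgi, and they went opposite ways. Rab1a was at 7.3 TPM in zygotes and 2.1 TPM in PB2 (log2 ratio -1.42), while Rab1b was at 44.2 and 106.7 TPM (1.25). Rab1a thereby made up 14.2% of the Rab1 transcripts in the zygote and 1.93% in PB2. Rab2b, the minor relative of Rab2a, was at 2.8 TPM in zygotes and 1.4 TPM in PB2, and 64.0% of its exonic bases overlap another gene, among them Tox4 on the opposite strand (3.8 and 1 TPM). Rab33b, a Golgi Rab that also takes part in autophagy, was at 5 and 10.2 TPM and just missed 2-fold. Rab18 of the ER and lipid droplets had 130.4 TPM in zygotes and 160.9 TPM in PB2.

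The Rabs of exocytosis had the largest ratio of summed levels among the compartments, from 262.2 TPM in zygotes to 482.8 TPM in PB2. Rab3d made up the largest part of that difference. Their median log2 ratio of 0.34 was below those of early endosomes (0.58) and recycling endosomes (0.51). Of 8 compared, 2 (25%) passed 2-fold towards PB2 and none towards the zygote, where 18.9% and 8.09% of all genes did. Rab3d, a Rab of secretory granules, was at 43.5 TPM in zygotes and 190.5 TPM in PB2, and its log2 ratio of 2.11 was the largest of any Rab GTPase. Rab3a, of regulated secretion, was at 26.6 and 77.2 TPM, 2.83-fold with the pseudocount, whereas their relative Rab3b was at 43.8 and 33.6 TPM (-0.37). The Rab3 set went from 113.9 to 301.8 TPM as a whole, and the share of Rab3d in it from 38.2% to 63.1%, with Rab3b passing from 38.5% to 11.1%. Rab27a, which docks secretory granules and lysosome-related organelles, was at 16.2 TPM in zygotes and 14.5 TPM in PB2. Rab8a and Rab8b, which carry vesicles from the Golgi to the plasma membrane, were at 29.8 and 47.9 TPM in the zygote and at 17.5 and 49.4 TPM in PB2. Rab10, of the same branch, was at 53.1 and 97 TPM (0.86). Thus within exocytosis Rab3d and Rab3a were past 2-fold, and Rab3b, Rab8a and Rab27a were lower in PB2 without reaching 2-fold.

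Among Rabs of early endosomes, the 3 Rab5 genes, whose products drive fusion of early endosomes, were all higher in PB2, and Rab5c alone passed 2-fold. Rab5c was at 5.1 TPM in zygotes and 20.3 TPM in PB2 (log2 ratio 1.80). Rab5a was at 4.2 and 6.8 TPM, and Rab5b at 4.4 and 7.6 TPM. Nearly equal in the zygote, the 3 genes gave Rab5c 37.2% of the set there and 58.5% in PB2. Rab4a, of fast recycling, was the most abundant Rab of this compartment, at 68.5 and 104.2 TPM (0.60).

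In recycling endosomes Rab35, which also acts at the cytokinetic bridge, was at 23.7 TPM in zygotes and 54.6 TPM in PB2 (log2 ratio 1.17). Rab14, which works between the Golgi and endosomes, was at 153.5 and 247.7 TPM (0.69). Rab11a held 95.7% of the transcripts of Rab11a, Rab11b and Rab25 in the zygote and 96.6% in PB2, so here the balance between relatives barely moved. Rab11b and Rab25 were at 4.6 and 4.7 TPM in the zygote and at 4.8 and 4.5 TPM in PB2. Early endosomes had 1 of 7 Rabs past 2-fold towards PB2 and recycling endosomes 1 of 6, where 18.9% of all genes were. Late endosomes and lysosomes had no member past 2-fold among 7, with a sum of 798.2 TPM in zygotes and 881.6 TPM in PB2. Rab38 and Rab32, which serve lysosome-related organelles, were at 152.3 and 114.4 TPM in the zygote and at 190 and 106.7 TPM in PB2. Rab9, which works in retrieval from late endosomes to the Golgi, was the lowest of this compartment relative to the zygote, at 90.2 and 51.2 TPM (-0.80). Over all compartments, the 32 Rab GTPases within 2-fold had log2 ratios from -0.80 to 0.90, with Rab12 and Rab33b at the upper end.

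**Figure D2:**
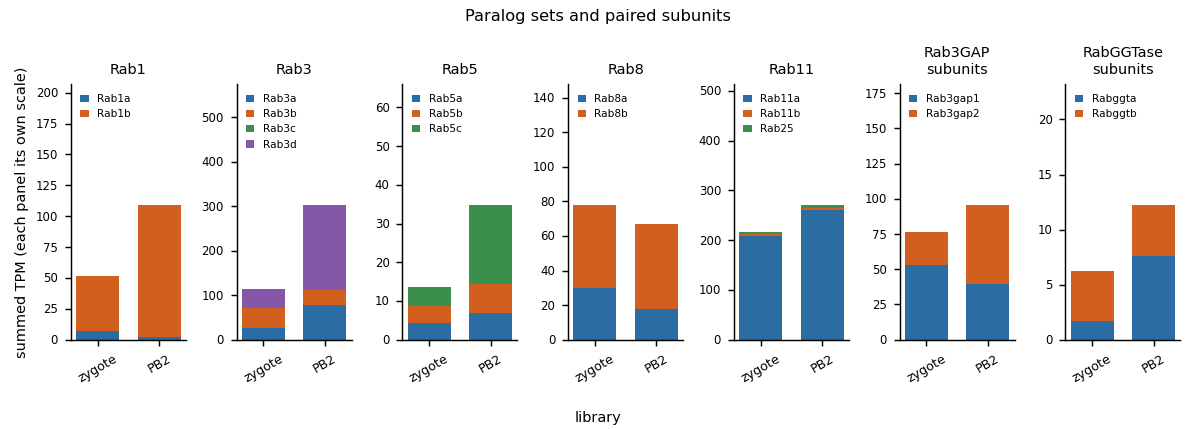
Summed TPM of 5 sets of Rab paralogs and of the subunits of 2 enzymes in the zygote and PB2 libraries, stacked by gene, each panel with its own axis starting at 0. Rab1b, Rab3d, Rab5c, Rab3gap2 and Rabggta take a larger share of their bar in PB2, and the Rab11 bars are nearly all Rab11a in both libraries.

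The GAPs were spread to either side of equal levels. Of 24 members, 23 were compared. Past 2-fold towards PB2 were 10 (43.5%) and towards the zygote none, against 18.9% and 8.09% of all genes. Of the rest, 11 had log2 ratios below 0 and 2 lay between. The 10 had log2 ratios from 1.00 to 2.06, and the other 13 from -0.60 to 0.52 with a median of -0.27, so that the class median of 0.26 sits in a sparse stretch. The summed level went the other way from the count, from 2341 TPM in zygotes to 2032 TPM in PB2, because Tbc1d15 alone held 81.2% of it in the zygote and 70.2% in PB2. Tbc1d15, a GAP for Rab7 that is found on mitochondria, was the most abundant of all 90 members in both libraries, at 1901.5 TPM in zygotes and 1426.7 TPM in PB2 (log2 ratio -0.41). Of the 10 higher in PB2, 7 were under 5 TPM in the zygote. With the GC trend described below removed, Tbc1d2b, Tbc1d10b, Tbc1d13 and Tbc1d30 among them were under 2-fold.

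In PB2 the most abundant GAPs past 2-fold were Tbc1d8 and Tbc1d22b. Tbc1d8 was at 36.7 TPM in zygotes and 106.6 TPM in PB2 (log2 ratio 1.51), and its relative Tbc1d8b, at 3.4 and 2.5 TPM, was not. Tbc1d22b was at 16.6 and 59.3 TPM (1.78). Tbc1d25, a GAP for Rab33b in autophagy, was at 3.1 and 16.1 TPM (2.06), the largest ratio of a GAP. Tbc1d10a and Tbc1d10b, GAPs for Rab27a and Rab35, were at 2.2 and 3.2 TPM in the zygote and at 11.8 and 13.1 TPM in PB2 and so were higher together. Tbc1d20, a GAP for Rab1 at the ER, was at 4.5 and 15.5 TPM (1.58), and Tbc1d13, a GAP for Rab35, at 2.9 and 11 TPM (1.62). Tbc1d2b was at 1.3 and 4.7 TPM, while Tbc1d30, with 2.1 and 5.2 TPM, sat exactly at 2-fold, a place that the rounding of TPM to 1 decimal can shift to either side.

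Rab3GAP consists of a catalytic and a regulatory subunit, and serves both as a GAP for Rab3 and as a GEF for Rab18. The catalytic subunit gene Rab3gap1 was at 53.2 TPM in zygotes and 39.3 TPM in PB2 (log2 ratio -0.43). The regulatory subunit gene Rab3gap2 was at 23 and 56.1 TPM (1.25), and went from 30.2% to 58.8% of the pair. The minor of the subunits in the zygote library was thereby the major one in PB2. Among GAPs lower in PB2, Rabgap1, a GAP for Rab6, was at 17.3 and 11.1 TPM (-0.60), the lowest ratio of the class. Tbc1d7, a subunit of the TSC complex counted here with the TBC GAPs, was at 54.2 and 39.4 TPM (-0.45).

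**Figure D3:**
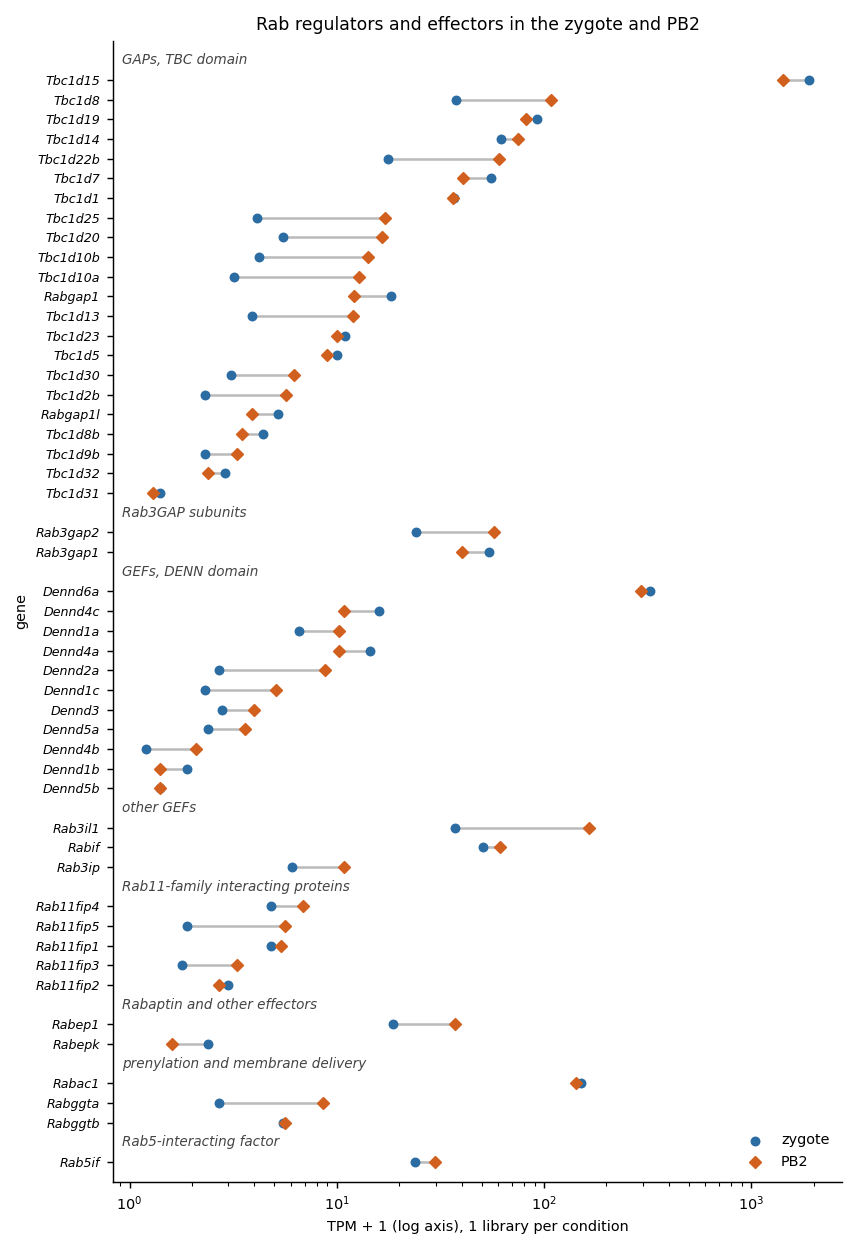
Level of each GAP, GEF, effector and prenylation member and of Rab5if as TPM + 1 on a log axis, in the zygote library (circles) and the PB2 library (diamonds). Tbc1d15 lies far to the right of the other GAPs in both libraries, and Rab3il1 has the longest line among GEFs, with PB2 on the right.

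Of the 14 GEFs, 12 were compared, with a median log2 ratio of 0.61. Of the 12, 3 (25%) passed 2-fold towards PB2 and none towards the zygote, against 18.9% and 8.09% of all genes. Rab3il1, a GEF that activates Rab8, had the largest log2 ratio of all members at 2.15, with 36 TPM in zygotes and 163.5 TPM in PB2. Its relative Rab3ip was at 5.1 and 9.8 TPM (0.82). As a share of all GEF transcripts among the members, Rab3il1 passed from 7.92% to 28.5%. The other GEFs past 2-fold were low in both libraries, Dennd2a, a GEF for Rab9, at 1.7 and 7.8 TPM (1.70) and Dennd1c, of the family that activates Rab35, at 1.3 and 4.1 TPM (1.15).

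Dennd6a, the GEF for Rab14, was the most abundant GEF, at 322.4 TPM in zygotes and 292 TPM in PB2 (log2 ratio -0.14). The Dennd4 genes, whose products activate Rab10, were at 13.5 TPM (Dennd4a), 0.2 TPM (Dennd4b) and 15 TPM (Dennd4c) in the zygote and at 9.2, 1.1 and 9.8 TPM in PB2. Dennd4a and Dennd4c were thus lower in PB2 at log2 ratios of -0.51 and -0.57, within 2-fold. Dennd1a was at 5.6 TPM in zygotes and 9.2 TPM in PB2, and Dennd5a at 1.4 and 2.6 TPM. Rabif, a chaperone of nucleotide-free Rabs that was counted with the GEFs, was at 49.5 TPM in zygotes and 60.1 TPM in PB2. The 9 GEFs within 2-fold had log2 ratios from -0.57 to 0.82.

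Effectors and genes of prenylation numbered 10, with a median log2 ratio of 0.35. Of these, 2 (20%) passed 2-fold towards PB2 and none towards the zygote, against 18.9% and 8.09% of all genes. Rabggta, the alpha subunit of Rab geranylgeranyl transferase, was at 1.7 TPM in zygotes and 7.6 TPM in PB2 (1.67). The beta subunit Rabggtb was at 4.5 and 4.6 TPM (0.03). The alpha subunit therefore made up 27.4% of the pair in the zygote and 62.3% in PB2, as with Rab3GAP a change of balance between subunits of one enzyme. Of the Rab11 effectors of the Rab11fip family, Rab11fip5 was at 0.9 and 4.6 TPM (1.56). Rab11fip1, Rab11fip2, Rab11fip3 and Rab11fip4 lay at 3.8, 2, 0.8 and 3.8 TPM in the zygote and at 4.4, 1.7, 2.3 and 5.9 TPM in PB2, all within 2-fold. Rabep1, the Rab5 effector rabaptin, was at 17.7 TPM in zygotes and 36.3 TPM in PB2, 1.99-fold with the pseudocount. Rabac1, a prenylated Rab acceptor of the Golgi, was the most abundant of this class, at 149.2 and 142 TPM (-0.07). Rab5if, a Rab5-interacting factor that was put in no class, was at 22.9 and 28.6 TPM, and 25.5% of its exonic bases overlap another gene.

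**Figure D4:**
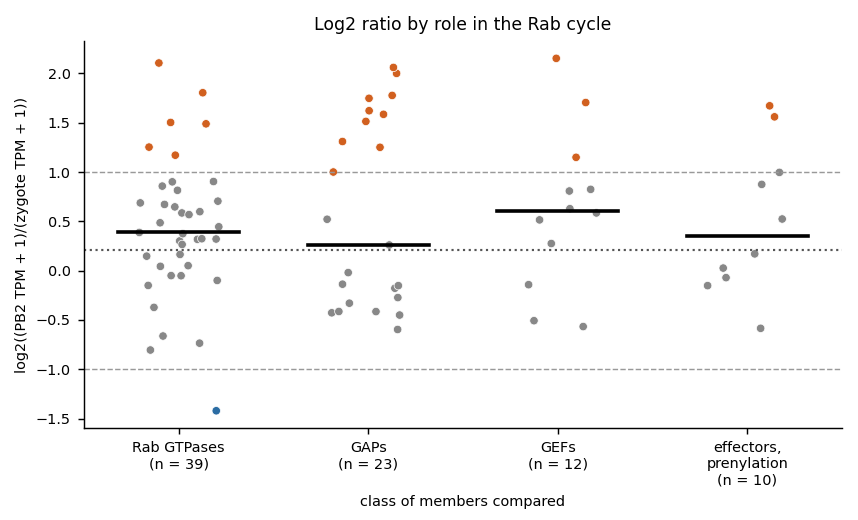
Log2 ratio of PB2 to zygote TPM, each with 1 added, for the members compared in each of 4 classes, 1 point a gene, with orange for at least 2-fold higher in PB2, blue for at least 2-fold higher in the zygote and grey for within 2-fold. Thick bars are class medians, the dotted line is the median of all genes (0.21) and dashed lines mark 2-fold. The GAPs show 10 points at or above 1 and most of the others below 0.

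Read along the Rab that a regulator acts on, the values of switch, GEF and GAP were as follows. For Rab35, the switch, its GEF Dennd1c and its GAPs Tbc1d13, Tbc1d10a and Tbc1d10b were all past 2-fold towards PB2, with ratios of 2.25-fold for Rab35, 2.22-fold for Dennd1c, 3.08-fold for Tbc1d13, 4-fold for Tbc1d10a and 3.36-fold for Tbc1d10b, pseudocount included. The other Dennd1 genes were not, with Dennd1a at a log2 ratio of 0.63 and Dennd1b not compared at 0.9 TPM in zygotes and 0.4 TPM in PB2. With the GC trend described below removed, Rab35 (0.57), Dennd1c (0.40), Tbc1d13 (0.87) and Tbc1d10b (0.88) were within 2-fold, and of these 5 genes only Tbc1d10a (1.02) was not. For Rab1, Rab1b and the GAP Tbc1d20 were past 2-fold towards PB2 and Rab1a towards the zygote. For Rab14 and its GEF Dennd6a the log2 ratios were 0.69 and -0.14, and for Rab7 and its GAP Tbc1d15 they were 0.27 and -0.41. For Rab10 the log2 ratio was 0.86, and for its GEFs Dennd4a, Dennd4b and Dennd4c it was -0.51, 0.81 and -0.57, with Dennd4b near 1 TPM or less in both libraries. A Rab and its regulators thus shared a side in some of these circuits and not in others.

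Transcript GC content moved with these differences. Across the 85 members the log2 ratio and GC content had a Spearman rho of 0.58, and across 10606 genes it was 0.44. Both describe genes measured in the same pair of libraries. The 21 members higher in PB2 had a median transcript GC content of 55.0%, and the 63 within 2-fold had 47.7%. Of 44 members richer in GC than the table's median of 49.2%, 19 passed 2-fold towards PB2 (43.2%, against 31.3% of all such genes). Of 41 members at or under it, only Rab6a and Rab3gap2 were (4.88%, against 6.63% of all such genes). The GAPs followed the same line, with 9 of 14 past 2-fold in the GC-rich part and 1 of 9 in the other.

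With the trend of the log2 ratio on GC content fitted over all genes and subtracted, 13 members were past 2-fold towards PB2, where 9.13% of all genes were, and 2 towards the zygote, where 11.0% were. The 13 comprise 12 of the 21 named above, with Rabep1 added at 1.15. Tbc1d8 (1.001), Dennd2a (1.002), Rabggta (1.005) and Tbc1d10a (1.02) are so close to the limit that the rounding of TPM can shift them. The largest were Rab3il1 (1.75), Rab3d (1.60) and Rab6a (1.57), the last with a larger value than before because its GC content is 44.6%. Those no longer past 2-fold were Rab1b, Rab3a, Rab35, Rab11fip5, Tbc1d2b, Tbc1d10b, Tbc1d13, Tbc1d30 and Dennd1c. Rab1b, at 58.9% GC, went to 0.35, while Rab1a, at 42.0%, stayed at -1.19. Rabac1, at 59.9% GC, was the other member past 2-fold towards the zygote, at -1.02. The part of amplification or of any other step in this trend was not tested.

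**Figure D5:**
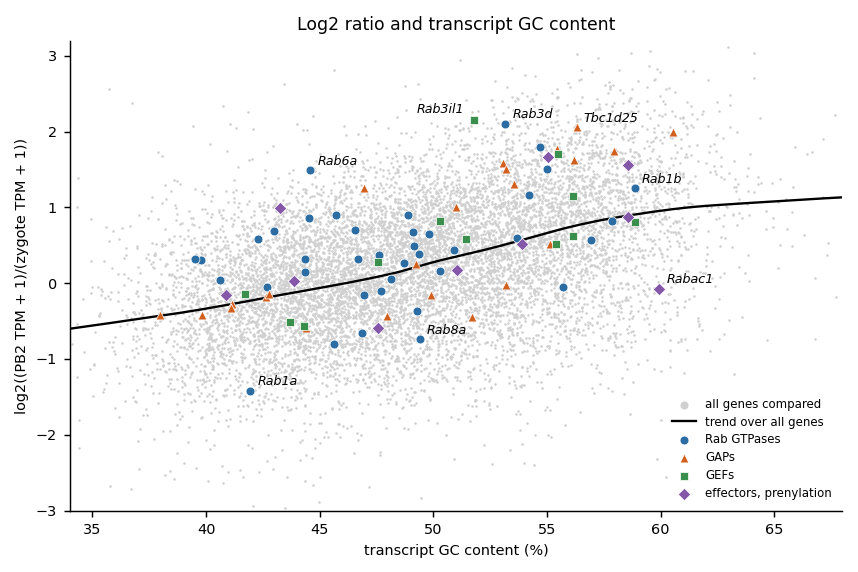
Log2 ratio of PB2 to zygote TPM, each with 1 added, against transcript GC content for all genes compared (grey) and for the members by class, with the trend over all genes as a black line. Of the 10606 genes, 32 lie outside the axes. Rab3il1, Rab3d and Rab6a lie well above the line and Rab1a well below it.

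A further limit is shared sequence. In 11 members at least 10% of the transcript's 50-base words also occur, on either strand, in transcripts of another gene. Among them are Rab7 (16.2%), Dennd4c (18.0%), Rab11b (14.0%) and Rab5b (13.0%). At least 5% of the exonic bases of 15 members overlap another gene, 4 of them past 2-fold, and whether the counting used strand is not given in the sources used here. For Rab6a the overlap was 19.0% with Mrpl48 on the opposite strand, itself at 88 TPM in zygotes and 72.1 TPM in PB2, and for Tbc1d8 it was 8.02% with Rpl31, at 25.5 and 21.1 TPM. For Rab3gap2 it was 19.3% with Gm34882 and Iars2 together, the latter at 0.6 and 0.9 TPM, and for Tbc1d22b it was 7.73%. Mrpl48 and Rpl31 were themselves within 2-fold, and Iars2 was under 1 TPM in both libraries and so not compared. Gm34882 and the genes overlapping Tbc1d22b were not among the genes analysed. Rab24, with 62.4% of its exonic bases shared with Prelid1 (72.4 TPM in zygotes and 114.3 TPM in PB2), was at 1.9 and 4.1 TPM and remains uncertain.

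Genes of the Rab cycle with other kinds of symbols were taken from a list of 98, of which 81 were compared. Of these, 19 (23.5%) passed 2-fold towards PB2 and 4 (4.94%) towards the zygote, where 18.9% and 8.09% of all genes did, and the median log2 ratio of 0.20 was next to the all-gene 0.21. The escort proteins Chm and Chml were low, at 2 and 1.7 TPM in the zygote and at 0.8 and 1.7 TPM in PB2. Gdi2, which encodes a GDI, was at 268.9 TPM in zygotes and 510.2 TPM in PB2 (0.92). Of 34 GEFs or GEF subunits in that list, 9 (26.5%) were past 2-fold towards PB2 and 2 (5.88%) towards the zygote, and their median of 0.09 lay below that of all genes. Flcn, folliculin, was at 17.6 and 78.9 TPM (2.10), and Sbf1, which carries a DENN domain, at 1.3 and 12.6 TPM (2.56). The Rab7 GEF subunits Ccz1 and Mon1b were at 18.6 and 5.3 TPM in the zygote and at 50.6 and 12.2 TPM in PB2, past 2-fold, unlike Rab7 itself. Subunits of TRAPP, the GEF complex for Rab1, were split. Trappc3, Trappc9 and Trappc10 were past 2-fold towards PB2 at log2 ratios of 1.57, 1.73 and 1.26. Trappc1 and Trappc13 were past 2-fold towards the zygote at -1.05 and -1.35. The other subunits compared lay within 2-fold, from -0.83 (Trappc2l) to 0.95 (Trappc5). With the GC trend removed, Trappc3 and Trappc9 were near the limit at 1.05 and 1.06 and Trappc10 was at 0.81. Past 2-fold towards the zygote were then Trappc1 (-1.35), Trappc13 (-1.07) and Trappc2l (-1.51). The GEFs Rabgef1 and Rgp1, for Rab5 and Rab6, were at 2 and 0.5 TPM in the zygote and at 5.2 and 3.2 TPM in PB2. With the GC trend removed, Rgp1 (0.74) and Mon1b (0.65) were under 2-fold and Rabgef1 was at 1.03. Flcn, Sbf1 and Ccz1 stayed past 2-fold. Of the 7 GAPs in the list only Sgsm3 passed 2-fold towards PB2 (14.3%, where 18.9% of all genes did), at 1.9 and 5.1 TPM. All 7 log2 ratios were above 0, with a median of 0.84. Their sum was 108.7 TPM in zygotes and 198.7 TPM in PB2, mostly from Evi5 at 97.8 and 175.9 TPM. With the GC trend removed, Sgsm3 was at 0.29 and Evi5 at 1.13.

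Of 36 effectors in that list, 9 (25%) were past 2-fold towards PB2 and 2 (5.56%) towards the zygote, against the same 18.9% and 8.09% of all genes, and their median was 0.13. Rph3al, which binds Rab3 and Rab27a on secretory granules, was at 38.6 TPM in zygotes and 90.1 TPM in PB2, and Myrip, which links Rab27a to myosin, at 3 and 9.9 TPM. Of the Rab partners of Rph3al, Rab3d and Rab3a were higher in PB2 too, and Rab3b and Rab27a were not. Rab27a is also the partner of Myrip. Rph3al and Myrip were named because they passed 2-fold, and effectors of Rab3 and Rab27a within 2-fold were not set beside them. The dynein adaptors Bicd2 and Bicdl1, which bind Rab6, were at 8 and 2 TPM in the zygote and at 24.1 and 5.8 TPM in PB2, on the side of Rab6a. They were named because they passed 2-fold, and partners of Rab6 within 2-fold were not set beside them. Of the Rab6 regulators named above, Rgp1, at 0.5 and 3.2 TPM, was on that side (1.49) and the GAP Rabgap1 was not (-0.60). With the GC trend removed, Rgp1 was at 0.74. Ric1, listed with the GEFs too, was within 2-fold at 30.5 TPM in zygotes and 45.8 TPM in PB2 (0.57). The Rab7 effectors Rilp, Plekhm1 and Fyco1 were at 0.9, 3 and 13.8 TPM in the zygote and at 3.2, 9.2 and 29.7 TPM in PB2. Vps41, a subunit of the HOPS tether that works with Rab7, was at 71 and 10.4 TPM (-2.66), and Uso1, a Rab1-dependent tether of the Golgi, at 74.2 and 33.3 TPM (-1.13). The other effectors past 2-fold towards PB2 were Micall2, which binds Rab13, at 1.3 and 6.3 TPM and the phosphatase Inpp5b at 26.3 and 55.7 TPM. With the GC trend removed, all 9 effectors past 2-fold towards PB2 were under it, from 0.23 (Bicdl1) to 0.98 (Bicd2). Vps41 (-2.58) and Uso1 (-1.11) stayed past 2-fold towards the zygote.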

How the data were processed

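The authors aligned reads with HISAT2 2.0.4, counted them with HTSeq 0.6.1p1 and used DESeq2 1.18.1, per the paper's methods and the submitters' processing notes, which name OryCun2.0, a rabbit assembly, and GRCm38. The identifiers in the table are mouse ones. The authors deposited TPM rounded to 1 decimal, and the depth of each library is unknown. How TPM was derived is not given in the sources used here. The table's TPM add up to 92.7% of a full library in the zygote and 89.8% in PB2. Both value columns were matched to samples by name and 0 were left over.

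Ratios used a pseudocount of 1 over genes that reached 1 TPM in either library, and the threshold was 2-fold. Classes and lists were written by hand, and Rab12 was moved from exocytosis to recycling endosomes once its values had been seen. GC content and length came from GENCODE M21 transcripts (11221 of 11262 identifiers matched, and all 90 members), and the loess trends had a span of 0.3. Shared sequence was searched as 50-base words. The genes named are those past 2-fold, the 10 most abundant members, lettered paralogs, and of the other Rab-cycle genes the escort proteins, Gdi2 and those past 2-fold, with 1 gene of this rule not reported here. Rab5if, Rab10, Rab12, Rab18, Rab24, Rab32, Rab3ip, Rabac1, Rabif, Rabgap1, Tbc1d7 and the circuits of Rabs with regulators were picked with their values in view. So were Evi5, Ric1, Trappc2l and Trappc5. Members and lists were chosen with earlier results of these data known. No test was run, since each condition has 1 library. The functions were tested on simulated data. Alternatives were thresholds of 1.5-fold and 4-fold, pseudocounts of 0.1 and 0.01, other filters, scalings, centring, and removal of GC or length trends. The tools were Python 3.11.15, statsmodels 0.14.6, pandas 2.3.3, scipy 1.17.1 and matplotlib 3.10.9.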

Additional observations from a re-analysis of the deposited data

How the results depend on the processing

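No paired analysis was possible because there is 1 library of PB2s and 1 of zygotes. Of 74 summary values over the alternatives, 53 stayed within the limits set (a count within 1.5 times, a median within 0.25), 19 moved further and 2 changed sign. The 21 members at least 2-fold higher in PB2 became 37 at 1.5-fold, 4 at 4-fold, 10 with a filter of 5 TPM in both libraries and 13 with the GC trend removed. The 1 member higher in the zygote became 5 at 1.5-fold, 0 at 4-fold, 0 with 5 TPM in both libraries, which takes out Rab1a, and 2 with a pseudocount of 0.1 or 0.01, with centring, or with the GC or length trend removed. The median of all members went to 0.15 with the GC trend removed. The GAP median changed sign with 5 TPM in both libraries (-0.14) and with the length trend removed (-0.087), and was 0.63 with 5 TPM in either. The GEF median was 0.27 with 5 TPM in both libraries, 0.15 with the GC trend removed and 0.26 with the length trend removed. The median of effectors and prenylation genes was 0.76 with 5 TPM in either library and 0.059 with the GC trend removed. Rab3d, Rab3il1, Rab5c, Rab6a, Tbc1d8 and Tbc1d22b were past 2-fold in all 10 settings in which the 2-fold limit was kept. Dennd2a, Rab1a, Rabggta, Tbc1d10a, Tbc1d20 and Tbc1d25 were so in the 9 settings that gave them a value. With the GC trend removed, Tbc1d8 (1.001), Dennd2a (1.002), Rabggta (1.005) and Tbc1d10a (1.02) were at the limit. The rounding of TPM can shift these to either side. Among single members, 746 of 788 values moved by less than 0.5 on the log2 scale and none changed from past 2-fold on one side to the other.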
